A study of Caenorhabditis elegans with 2 samples.

Results

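The peaks described here are the optimal peaks of the forkhead factor UNC-130 that lay outside promoters, in introns, exons and intergenic sequence of Caenorhabditis elegans. They numbered 208 of the 1168 entries in the authors' optimal list (17.8%), with 30 in introns, 55 in exons and 123 in intergenic sequence. A peak was counted by its summit, the position of highest signal inside the region. A summit was kept when it lay on a nuclear chromosome and outside every promoter window, which spans the 1000 bp before the start of a protein-coding transcript and the 200 bp after it. It also had to lie more than 200 bp from any tRNA, snRNA or snoRNA gene. Of the other optimal entries, 761 lay in promoter windows, 176 near such small RNA genes and 23 on the mitochondrial genome. The study used chromatin immunoprecipitation followed by sequencing (ChIP-seq) on 2 biological replicates of a single group, and no second condition was analysed here. Both replicates were whole young adult hermaphrodites of strain AGK541, taken 56 hours after starved first-stage larvae had been used to synchronize them. A note in the labels adds a FLAG tag to the GFP. All worms came from 1 strain, which carries the insertion armSi1 on chromosome II, in which the mex-5 promoter, active in the germline, drives UNC-130 fused to GFP, followed by the tbb-2 3′ UTR (tbb-2 encodes a beta tubulin) and the marker cb-unc-119(+). Its background holds unc-119(ed3) on chromosome III and niDf199 on chromosome IV. The sample description gives an anti-GFP antibody for the immunoprecipitation, whereas another label field names unc-130 as the antibody.

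UNC-130 belongs to the forkhead family, whose members bind DNA through a winged-helix domain, and it is known in the worm for its part in the guidance of distal tip cells and axons and in the fate of sensory neurons. Worm genes are short and closely spaced, many lie in operons, and most introns are small, so the sequence between a transcript's end and the next gene is often brief. Sequence outside promoters holds enhancers, unannotated starts and the 3′ ends of genes, where the transcript is cleaved and polyadenylated. The lists do not hold the tissue of origin, since whole worms were used. The tagged protein was driven by the mex-5 promoter, which is active in the germline.

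The sequences around 3 summits are shown first because they carry the forkhead consensus GTAAACA, the string most often named for this family. It was sought on both strands in the 200 bp centred on each summit, and these were the 3 members that held it. The stretches come from the RefSeq genome of the WBcel235 assembly, the same assembly as ce11, and are written 5′ to 3′ on the strand of the match with the consensus in capitals. The lea-1 stretch is V:10018516-10018545 on the minus strand and its string lay 0 bp from the summit, the ztf-17 stretch is II:7866273-7866302 on the plus strand at 52 bp, and the vha-14 stretch is III:9504573-9504602 on the plus strand at 40 bp.
lea-1: tctttttaaatGTAAACAacattaagtaaa
ztf-17: tattcataggcGTAAACAcaaagaacagaa
vha-14: gtgtttggtccGTAAACAaaacatcggcgc
The window at lea-1 held 4 matches, and the windows at ztf-17 and vha-14 held 1 each. The 3 members are 1.44% of the 208 (95% Wilson interval 0.492–4.15), against 3.15% of promoter peaks (2.13–4.65) and 1.68% of weaker candidates (1.47–1.92), the pooled entries outside promoters that overlapped no optimal peak. The interval of the members covered the shares of both other sets. The share rests on few members: among the 1168 best entries of replicate 1 alone 8 of 231 such summits held the string (3.46%), and among those of replicate 2 alone 5 of 246 (2.03%). A match is a description of letters and says nothing of binding.

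A second set of sequences is shown because this string class was the one whose share differed most between the members and the weaker candidates in absolute terms. It is the class of the cell cycle factor E2F, written TTNNCGC with C or G at each N and counted on both strands. It was present at 34 of 208 summits, 16.3% (11.9–22.0), against 28.6% of promoter peaks (25.5–32.0) and 7.88% of weaker candidates (7.43–8.36). The stretches below are those of the exon and intron members of highest signal with the string and of the 3 such intergenic members, with the string in capitals. They are IV:7043657-7043686 (minus strand) for klp-18, X:6296534-6296563 (plus strand) for mom-1, II:2451220-2451249 (minus strand) for vab-19, IV:8375610-8375639 (minus strand) for D2096.7 and II:8015582-8015611 (plus strand) for DH11.2.
klp-18: ggtttcggaaaTTGCCGCgcacccctggaa
mom-1: cccatttacatTTGGCGCagggggtcacca
vab-19: ggccggaaattTTCGCGCcgcaaatcctcg
D2096.7: tttacgcgcgaTTGGCGCtctgctgttgca
DH11.2: aaactgtttttTTCGCGCattttttgcatt
The strings lay 4, 12, 18, 46 and 6 bp from these summits in the order printed. By set, the E2F class was present at 13.3% of intron members (4 of 30), against 9.31% of intron candidates. It was present at 9.09% of exon members (5 of 55), against 5.93% of exon candidates. It was present at 20.3% of intergenic members (25 of 123, interval 14.2–28.3), against 8.72% of intergenic candidates (7.85–9.67). The interval of the intergenic members alone lay clear of that of its candidates, while those of the intron and exon members covered theirs.

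The weaker candidates that serve as the reference are the 12921 entries of the pooled replicates' candidate list that fell in the same 3 kinds of sequence and overlapped no optimal peak, 4425 in introns, 4825 in exons and 3671 between genes. The optimal list held every pooled entry at or above 1 signal value, so the members were chosen by their pooled signal and by position, and differences in signal from the candidates are no finding. Of all pooled entries in introns 0.672% were optimal, which are the 30 intron members, and of those in exons 1.12%, the 55 exon members. Of intergenic entries 3.20% were optimal, the 123 intergenic members. Together 1.57% of entries outside promoters were optimal, against 9.20% of entries in promoter windows. The signal value is that of the authors' peak caller, on a scale not given in the sources used here, and without read counts the depth is unknown. No test was made, and the intervals (Wilson) cover the counting of regions only. In 8 places the regions of 2 members overlapped, with summits 199 to 275 bp apart and the same entry matched in each replicate, so the 208 members stand for 200 separate places.

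Members of the 3 sets had like signal in the pooled list and were found in both replicates. The median pooled signal was 70.3 for intron members (54.8 to 183), 68.8 for exon members (53.9 to 165) and 71.8 for intergenic members (53.5 to 142), against 77.6 for promoter peaks (53.5 to 390.5). Every member overlapped a candidate entry of replicate 1, and 207 of 208 overlapped an entry of replicate 2, the exception being a member in intron 11 of gcn-1. Replicate scales were not given, so replicates are compared by rank. Among the 1168 best entries of replicate 1 were 171 members (82.2%, 76.4–86.8), against 85.9% of promoter peaks. Among those of replicate 2 were 173 members (83.2%, 77.5–87.6), against 83.0% of promoter peaks. Both held 138 members (66.3%), against 70.4% of promoter peaks, and 2 members, at nck-1 and Y82E9BR.17, were in neither. The median rank of the members was 666 in replicate 1 (34 to 3687) and 592 in replicate 2 (55 to 8094).

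**Figure D1:**
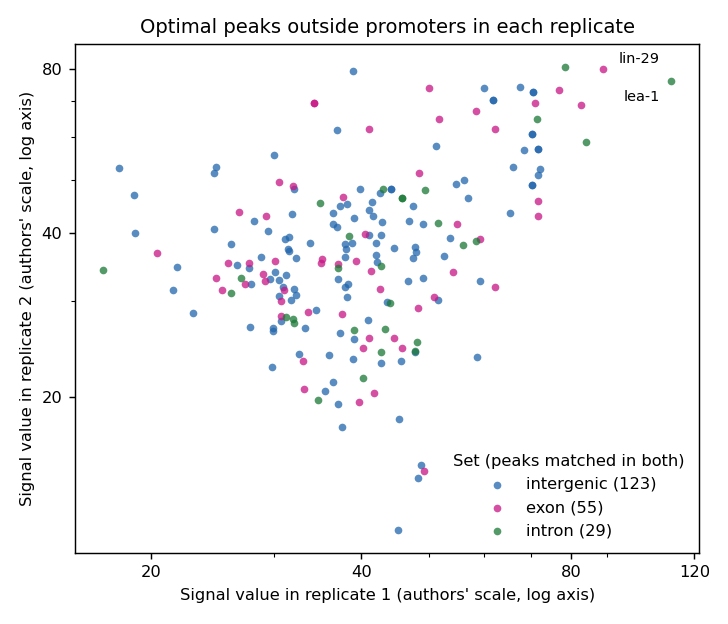
Signal value of each optimal peak outside promoters in replicate 1 (horizontal, log axis) and replicate 2 (vertical, log axis), one point per peak matched in both, coloured by set. The 3 sets overlap over most of the range, intergenic peaks reach 72.2 in replicate 1, and the intron peak of lea-1 (111 and 76.3) and the exon peak of lin-29 (88.7 and 80.2) lie at the upper right.

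Some members had ranks far apart in the 2 replicates. The member past the end of top-2, which encodes DNA topoisomerase II, had signal 38.9 in replicate 1 (rank 697) and 79.5 in replicate 2 (rank 58). The member past the end of air-1, the Aurora A kinase, had 45.2 (rank 498) and 11.4 (rank 8094). The member in an intron of pals-1 had 17.1 (rank 3687) and 34.2 (rank 672). Like all members, these were chosen by the pooled signal. At its lower edge, the last entries inside were at fbxb-58 (pooled 53.5; replicate 1, 21.5; replicate 2, 31.5), hpk-1 (53.5; 33.2; 26.8) and Y82E9BR.17 (53.6; 29.8; 22.7). The first outside were at ben-1 (53.5; 32.8; 21.8), rps-9 (53.3; 17.3; 36.4) and Y69A2AR.31 (53.3; 34.8; 17.3). Values on both sides of the edge were alike.

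The members lay close to the ends of protein-coding transcripts. Of the 208 summits, 147 were within 500 bp of an annotated transcript end (70.7%, 64.2–76.4), against 37.1% of promoter peaks and 28.8% of weaker candidates (28.0–29.6). The median distance to the nearest end was 190.5 bp for members, against 1316 bp for candidates. Just upstream of an end lies the gene itself, and no intergenic member lay 1 to 500 bp upstream of its nearest end. So 84 of the 118 members found 0 to 500 bp downstream owe their side to their class. Exon members, which can lie on either side, split into 27 downstream and 27 upstream, against 831 and 1161 of the 4825 exon candidates. For starts, which the promoter rule keeps at a distance, the sets differed among themselves. The median distance to the nearest start was 1725 bp for intergenic members, against 2380 bp for intergenic candidates, 1153 bp for exon members, against 1444 bp, and 1951 bp for intron members, against 1473 bp. A start lay within 2000 bp of 60.2% of intergenic members (51.3–68.4), against 39.6% of intergenic candidates (38.0–41.2). The 61 members farther from an end were 39 intergenic, 21 intron and 1 exon. The distance to an end was a planned description, and the limit of 500 bp was chosen after the values were seen.

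**Figure D2:**
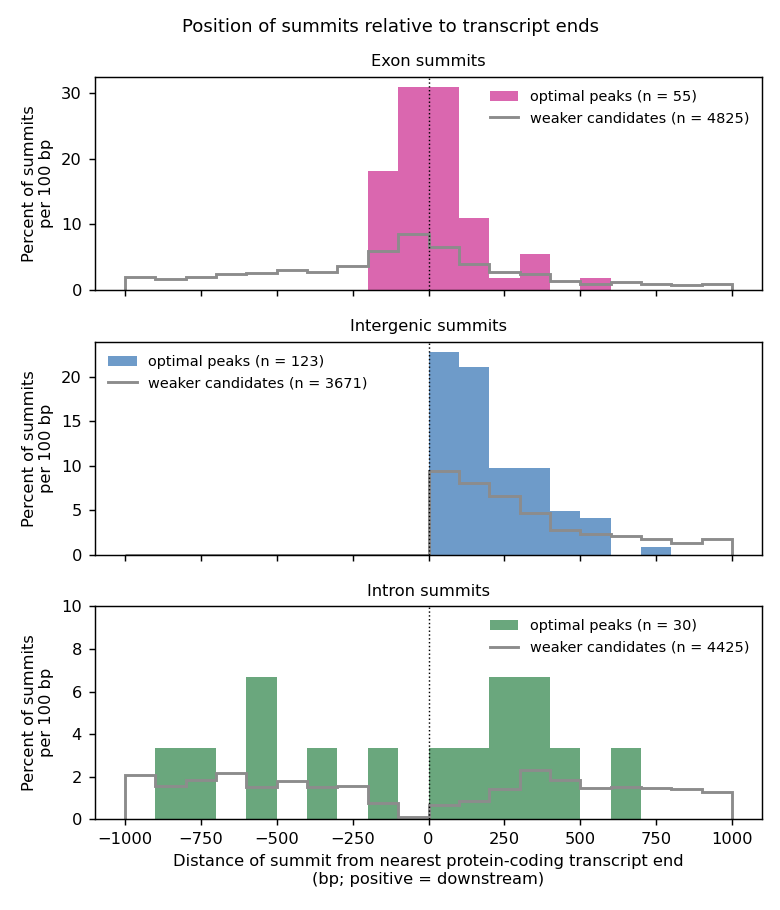
Percent of summits per 100 bp of signed distance from the nearest protein-coding transcript end, for optimal exon, intergenic and intron peaks (filled) and weaker candidates of the same class (grey line); the vertical scales differ. Exon peaks gather on both sides of the end and intergenic peaks just past it, while the 30 intron peaks are spread out.

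Candidates just below the optimal list lay near ends as often as the members. The 208 candidates of next highest signal (41.0 to 53.5) had 70.7% of summits within 500 bp of an end, the same share as the members. The next 4 steps of 208 entries had 61.1%, 58.2%, 51.0% and 54.3%, and the remaining 11881 entries had 26.2% (25.4–27.0). The share over all classes did not change at the signal value that ends the optimal list, but the mix of classes did. Intergenic entries were 59.1% of members and 39.9% of the first step. Exon entries were 26.4% and 40.4%, and intron entries 14.4% and 19.7%. The end share of each class was not computed by step. The E2F class was at 16.3% in the members, against 12.0%, 7.21%, 8.17%, 12.5% and 8.17% in the 5 steps and 7.73% in the remaining entries.

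**Figure D3:**
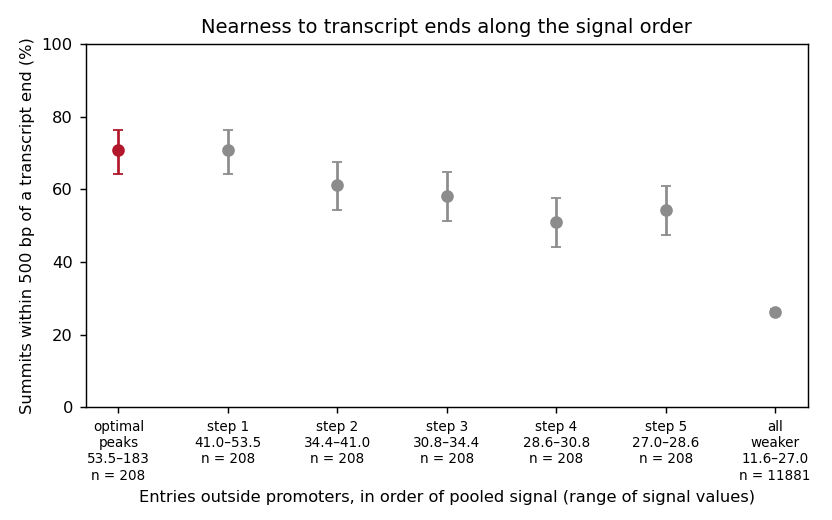
Percent of summits within 500 bp of a transcript end (vertical, with 95% Wilson intervals) for the 208 optimal peaks outside promoters, for 5 successive steps of 208 weaker candidates in order of pooled signal, and for the 11881 others. The optimal peaks and step 1 are both at 70.7%, and the last point is at 26.2%.

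Exon members lay mostly in the 3′ UTR and the last exon of their genes. In the 3′ UTR were 36 of 55 (65.5%, 52.3–76.6), against 19.0% of exon candidates, in coding sequence 18 (32.7%), against 79.8%, and in a 5′ UTR 1, at C34C12.2. The last exon held 49 (89.1%), against 37.1% of exon candidates. Within 500 bp of a transcript end were 54 of 55 (98.2%, 90.4–99.7), against 41.3% of exon candidates, with a median distance of 62.0 bp, against 752 bp. Since genes on opposite strands often overlap at their ends in the worm, the nearest end was not always that of the host. A promoter peak lay within 2000 bp of 10 exon members (18.2%), against 6.55% of exon candidates.

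The exon member of highest signal was in the 3′ UTR of lin-29, a zinc finger factor of the change from larva to adult, at II:11917727-11917940 and 169 bp before the transcript's end. Its signal was 165 in the pooled list, 88.7 in replicate 1 and 80.2 in replicate 2. The member at klp-18, a kinesin of the oocyte spindle (IV:7043569-7043790, printed above), lay 17 bp before the end, with 146, 76.7 and 73.3. These members were among the 100 best entries of both replicates. The member at tir-1, the SARM1 homolog of innate immunity (III:3869503-3869750), lay 27 bp before the end, with 134, 70.9 and 69.3. The member at mcm-4, a subunit of the replicative helicase (I:2318245-2318412), lay 9 bp past the end of its neighbour ekl-7, with 125, 58.5 and 67.1. The member at rib-2, a heparan sulfate glycosyltransferase (III:10746526-10746757), lay 2 bp past the end of ran-1, the Ran GTPase of nuclear transport, with 118, 62.1 and 62.3. At mcm-4 and rib-2 the nearest end was that of a neighbour, whereas at lin-29, klp-18 and tir-1 it was the host's own.

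Of the other exon members of highest signal, that at lelo-2 had 115 in the pooled list, 51.7 in replicate 1 and 64.8 in replicate 2, and that at pigq-1, which encodes a subunit of the enzyme that begins GPI anchor synthesis, had 115, 50.0 and 74.0. The member in F31E3.12 lay 64 bp past the end of eef-1A.1, translation elongation factor 1 alpha, and had 112, 71.6 and 45.8. The member in D2030.12 lay 90 bp past the end of prg-1, the Piwi protein that binds 21U-RNAs, and had 109, 71.6 and 43.1. The ztf-17 member with the forkhead consensus (II:7866124-7866553) had 102, 48.4 and 51.5, and lay in the 3′ UTR, 44 bp past the nearest annotated end of the same gene. By rank the lelo-2, pigq-1 and ztf-17 members stood higher in replicate 2, and the F31E3.12 and D2030.12 members in replicate 1.

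The exon member at C36E8.4 lay beside a gene of which the transgene carries a piece. It lay at III:4015603-4015817, with signal 148 in the pooled list, 82.7 in replicate 1 and 68.7 in replicate 2, in coding sequence 62 bp before the end of C36E8.4. Its summit was also 193 bp past the end of tbb-2, whose 3′ UTR ends the transgene. What the extra copy adds to its signal was not tested. The nearest member to the worm's own unc-119 gene was 24917 bp away, to unc-130 253394 bp and to mex-5 783118 bp. These distances do not check every transgene piece. The mex-5 piece is a promoter, and the rule leaves out summits in promoter windows whatever their signal. The marker cb-unc-119(+) was not itself compared.

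**Figure D4:**
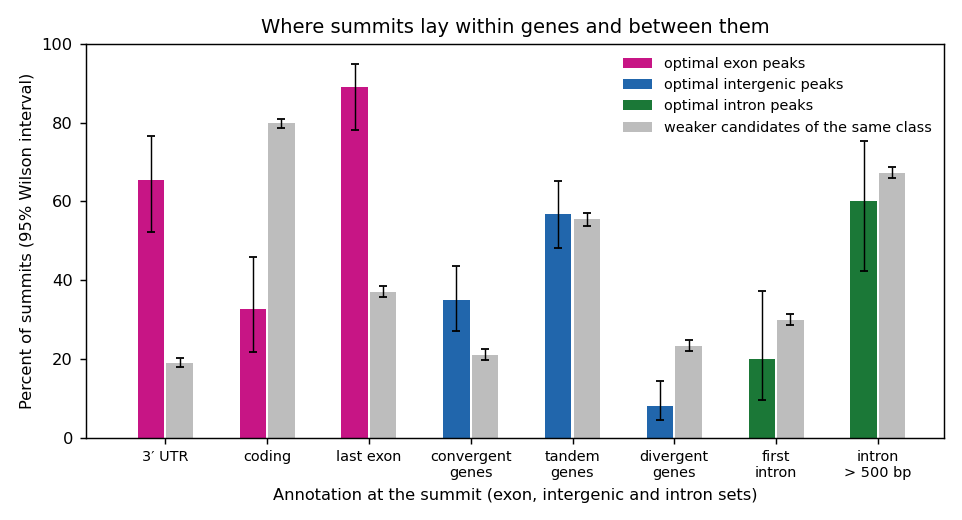
Percent of summits in each annotation (vertical, with 95% Wilson intervals) for optimal exon, intergenic and intron peaks (coloured) beside the weaker candidates of the same class (grey). The 3′ UTR holds 65.5% of exon peaks against 19.0% of candidates, and divergent gene pairs hold 8.13% of intergenic peaks against 23.4%.

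Intergenic members lay by gene ends more often than intergenic candidates did, and between diverging genes less often. The promoter rule leaves out summits in the 1000 bp before a start, so both sets lean towards gene ends by construction. The nearest gene faced the summit with its end in 104 of 123 (84.6%), against 60.2% of intergenic candidates. Between converging genes lay 43 (35.0%, 27.1–43.7), against 21.1%, between genes in tandem 70 (56.9%), against 55.5%, and between diverging genes 10 (8.13%, 4.48–14.3), against 23.4%. Within 500 bp of an end were 84 (68.3%, 59.6–75.9), against 31.5%. The gap between the flanking genes had a median of 3185 bp, against 5869 bp. The part of the shorter gaps in the shares by arrangement was not tested. Another annotated gene (lincRNA, ncRNA, miRNA or pseudogene) was at 11 summits (8.94%), against 10.6% of intergenic candidates.

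The intergenic member of highest signal lay 318 bp past the end of rpl-31, which encodes a large-subunit ribosomal protein, at I:13652416-13652845. Its signal was 142 in the pooled list, 70.4 in replicate 1 and 72.6 in replicate 2, and the lincRNA gene linc-1 was annotated at its summit. The member 127 bp past the end of rpl-11.1, another large-subunit protein (V:3584970-3585399), had 137, 67.5 and 74.2. The member 112 bp past the end of T05F1.2, which converges with the small-subunit gene rps-19 (I:9624714-9624948), had 129, 59.9 and 73.9. These 3 ranked 134, 154 and 227 in replicate 1 and 84, 77 and 79 in replicate 2. The member 70 bp past the end of atp-1, the alpha subunit of mitochondrial ATP synthase, had 125, 61.7 and 70.2, and a second member 202 bp away had pooled signal 91.4. The member 270 bp past the end of vab-19, an ankyrin-repeat protein of epidermal attachment (II:2451122-2451290, printed above), had 127, 72.2 and 52.4. The member 142 bp past the end of D2096.7 (IV:8375573-8375682, printed above) had 119.5, 71.7 and 51.1.

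Other strong intergenic members lay farther out or by noncoding genes. The member by K08F11.1 (IV:4727902-4728093) lay 2712 bp past its end and had 132 in the pooled list, 70.3 in replicate 1 and 60.8 in replicate 2. The member by cysl-4, a cysteine synthase family gene, lay 1796 bp past its end and had 126, 68.5 and 56.8. The member by F40E3.3, 384 bp past its end, had 129.9, 71.7 and 57.1. In replicate 1 these 3 ranked 135, 148 and 122, well above the median member. The member by alh-3, an aldehyde dehydrogenase family gene (IV:11025965-11026095), lay 178 bp past its end at the microRNA gene cel-mir-51, with 117, 70.3 and 49.0.

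Intron members lay farther from transcript ends than the other sets, as intron candidates did, but nearer to ends than those candidates. Only 9 of 30 were within 500 bp of a transcript end (30.0%, 16.7–47.9), against 12.9% of intron candidates, with a median distance of 1290.5 bp, against 1912 bp. The first intron held 6 (20.0%), against 30.0% of candidates, and the last intron held 14 (46.7%, 30.2–63.9), against 17.2% (16.1–18.3). Introns over 500 bp held 18 (60.0%), against 67.3%. The median length of the host intron was 688 bp, against 788 bp. The last-intron share was computed after the values were seen. Of these 4 shares, those for ends and last introns had intervals clear of the candidates.

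The member of highest signal outside promoters was in intron 1 of 5 of lea-1, a homolog of the late embryogenesis abundant proteins of desiccation tolerance, at V:10018395-10018612. It had signal 183 in the pooled list, 111 in replicate 1 (rank 34) and 76.3 in replicate 2 (rank 65). The intron is 7073 bp long, and the summit lay 2013 bp upstream of the nearest lea-1 start. It is the member with 4 forkhead matches. The member in intron 1 of ints-8, a subunit of the Integrator complex that processes small nuclear RNAs (I:13463822-13464068), had 159, 78.4 and 80.8. The member in Y56A3A.7 (III:11946440-11946648) had 143, 84.0 and 58.8. These 3 were among the 100 best entries of replicate 1, and the first pair among those of replicate 2.

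Several other intron members lay in the last intron of their hosts. In hmt-1, an ABC transporter of heavy metal tolerance, a member in intron 11 of 11 (III:11091881-11092030) had 131 in the pooled list, 71.3 in replicate 1 and 64.9 in replicate 2. A separate member in intron 10 (III:11093480-11093909) had 96.3, 58.5 and 38.7. In mod-5, the serotonin reuptake transporter, 2 overlapping members in the last intron (92.7 and 70.5 in the pooled list) shared the replicate values 45.8 and 46.4. The member in the last intron of mom-1, the Porcupine homolog of Wnt secretion (X:6296322-6296751, printed above), had 91.1, 56.0 and 38.0. The member in the last intron of sre-45, a serpentine receptor gene, had 89.0, 43.0 and 48.3. The strongest Y62F5A.9 member had 95.7, 49.4 and 48.1, and the member in intron 2 of mdt-26, a Mediator subunit, had 87.6, 51.6 and 41.7. An intron member of frpr-10 (IV:7962090-7962229) had 76.9, 42.7 and 34.8, and lay 6 bp past the end of csr-1, a germline Argonaute that binds small RNAs.

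Host or nearest gene of 2 members each were 10 genes, but at 6 of them (F40E3.3, mod-5, rpl-31, K08F11.1, C46C2.7 and alh-3) the regions overlapped and matched the same replicate entries, so 4 genes had separate members. Of the 10, hmt-1, mod-5, Y62F5A.9, rpl-31, K08F11.1, F40E3.3 and alh-3 are named above. The others were C46C2.7 (79.2 and 61.7 in the pooled list), the calmodulin gene cmd-1 (71.0 and 68.1) and vha-14, a subunit of the vacuolar ATPase (61.5 and 54.2). The vha-14 member with the forkhead consensus had 29.6 in replicate 1 and 33.0 in replicate 2. The cmd-1 pair lay 3344 and 4771 bp upstream of its start, at the lincRNA gene linc-128. The second alh-3 member had 75.3 and the second Y62F5A.9 member 55.9.

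Genes of the ribosome and of the germline were the lists with most members, by host or nearest gene. Ribosomal protein genes had 9 of 208 members (4.33%), against 0.163% of candidates. Beside rpl-31 (142 and 85.6) and rpl-11.1 (137), these were rps-13 (112), rps-6 (99.2), ubl-1 (81.6), rps-2 (70.9), rps-8 (64.3) and rps-27 (63.1). All lay between 89 and 318 bp past a gene's end. Germline and oogenesis genes had 6 (2.88%), against 0.534%: the eggshell protein gene cbd-1 (107), the eggshell proteoglycan genes cpg-1 (85.7) and cpg-2 (55.7), glh-1 of the P granule (83.5), the RNA-binding factor pos-1 of the embryo (60.8) and the yolk receptor rme-2 (57.0). Their summits lay within 189 bp of the gene's end.

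Other lists had few members. Small RNA pathway genes had 2 (0.962%), against 0.263% of candidates: hrde-1, the nuclear Argonaute of inherited silencing (91.9, 62.1 and 31.8 in the pooled list and in replicates 1 and 2), and mut-16, the scaffold of Mutator foci (65.7, 40.9 and 27.7). Cell cycle and replication genes had 3 (1.44%), against 0.271%: mcm-4 (125), pcn-1, the sliding clamp PCNA (71.0), and air-1 (59.3). The F-box, MATH and C-type lectin families had 3 (1.44%), against 1.18%: fbxa-139 (108), clec-87 (67.9) and fbxb-58 (53.5). Homeobox genes had 1, ceh-5 (70.5), or 0.481%, against 0.557% of candidates, and body wall muscle genes 1, act-2 (86.6), or 0.481%, against 0.387%. The forkhead, TGF-beta and axon guidance, nuclear hormone receptor, collagen, neuron, histone and sperm lists had 0 of 208, which allows a share of up to 1.44% (3 counts). Their shares of candidates were 0.317%, 0.387%, 1.36%, 1.09%, 0.248%, 0.0310% and 0.132% in that order, all within that limit. By the gene whose end was nearest, within 500 bp, ribosomal protein genes had 12 of 147 members (8.16%), against 0.457% of candidates near ends, with rps-5, rpl-32 and rpl-22 added. Small RNA pathway genes had 4 (2.72%), against 0.296%, with prg-1 and csr-1 added. Germline and oogenesis genes had 6 (4.08%), against 0.591%, cell cycle and replication genes 2 (1.36%), against 0.376%, without mcm-4, and the F-box, MATH and C-type lectin families 1 (0.680%), against 1.64%. Body wall muscle genes had 1 (0.680%), against 0.242%, and the other lists had 0 of 147. Among candidates near ends those lists had 1.64% (collagen), 1.02% (nuclear hormone receptor), 0.376% (homeobox) or less. With 147 members, a count of 0 cannot be told apart from shares this small.

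Genes with a member at the end often had a promoter peak as well. The 147 members near an end lay by 144 genes, of which 50 also had an optimal peak in a promoter window (34.7%, 27.4–42.8), against 9.37% of the 3255 genes by candidates near ends (8.42–10.4). At klp-18 the signal was 146 at the end and 117 at the promoter, with the summits 3793 bp apart. At cpg-1 it was 85.7 at the end and 219 at the promoter, 2304 bp apart. Other such genes were top-2 (116 and 151), klp-16, a kinesin (92.4 and 183), hrde-1 (91.9 and 153) and csr-1 (76.9 and 102). So were pcn-1 (71.0 and 126), pos-1 (60.8 and 142), rme-2 (57.0 and 101) and eef-2, translation elongation factor 2 (105 and 95.1). The 50 also held Y22D7AL.10 (73.2 and 228), T05F1.2 (129 and 82.2) and atp-1 (125 and 63.1). The genes named are examples picked by no rule, and they do not stand for the 50. Either site could be the stronger. This count was made after the values were seen, and the level of transcription of these genes was not measured here.

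The remaining strings gave smaller contrasts. The looser forkhead string (NNNAACA, with a purine at the first N, a pyrimidine next and A or C at the last) contains every GTAAACA match and was present at 26.4% of members (20.9–32.8), against 28.4% of promoter peaks and 21.2% of candidates (20.5–22.0). The E-box CACGTG was at 7.69% (4.79–12.1), against 3.94% of promoter peaks and 4.24% of candidates. The GATA string TGATAA was at 17.8%, against 11.0% and 15.6%, and GAGAG at 30.3%, against 37.2% and 26.7%. The 21U-RNA upstream string CTGTTTCA was at 3.37% (7 members, 1.64–6.78), against 0.788% and 1.78%. The tRNA promoter B box (GNTCNANNC, with A or T at the first N, a purine at the next and any bases at the others) was at 7.21%, against 11.0% and 8.13%. The reversed forkhead control ACAAATG was at 2.88%, against 4.47% and 4.52%. The E2F class was at 13.6% of the members near an end (8.98–20.1) and 23.0% of those away from one (14.2–34.9). Those intervals overlapped, and median GC content was 36.5% near an end and 41.0% away. Among candidates the class was at 7.39% near an end and 8.08% away.

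**Figure D5:**
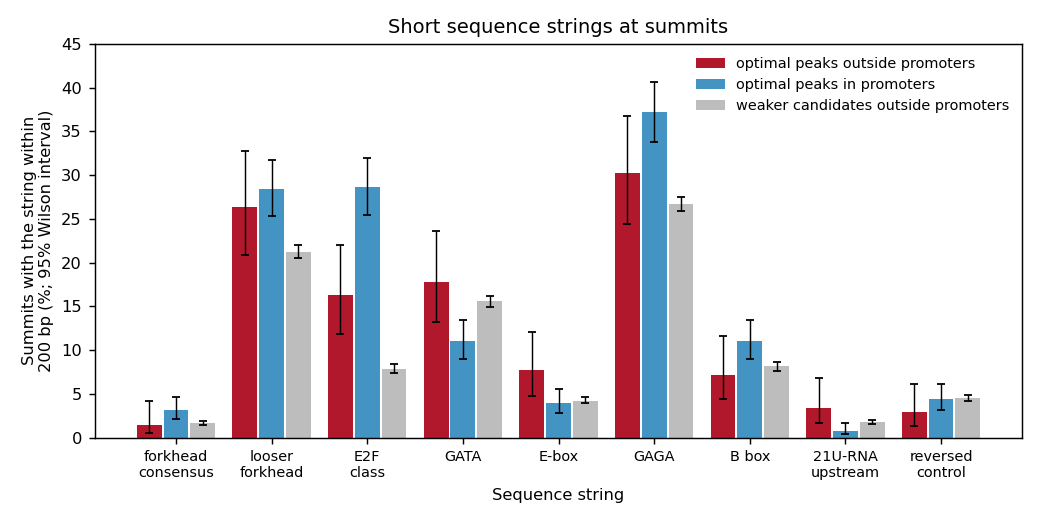
Percent of summits with each short string within the 200 bp window (vertical, with 95% Wilson intervals) for optimal peaks outside promoters, optimal peaks in promoters and weaker candidates outside promoters. The E2F class is at 16.3%, 28.6% and 7.88%, and the forkhead consensus at 1.44%, 3.15% and 1.68%.

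Base composition and chromosome differed between some of the sets. The median GC content of the 200 bp window was 37.0% in members, against 39.0% in promoter peaks and 36.5% in candidates. By set it was 36.0% in exon members, against 40.5% in exon candidates, 37.8% in intron members, against 34.0%, and 38.0% in intergenic members, against 34.5%. The part of base composition in the string shares was not tested. Repeat-masked sequence filled over 50% of the window at 18.3% of members, against 24.5% of candidates. Chromosome X held 12 members (5.77%, 3.33–9.81), against 2.63% of promoter peaks (1.71–4.02) and 13.0% of candidates. Chromosomes I and III held 49 each (23.6%), against 22.1% of promoter peaks on each and 18.7% and 18.3% of candidates. Chromosome II held 37 (17.8%), against 20.0% and 16.3%, chromosome IV 34 (16.3%), against 18.8% and 16.9%, and chromosome V 27 (13.0%), against 14.5% and 16.9%.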

How the data were processed

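The authors deposited narrowPeak lists on ce11 for each replicate, for the pooled replicates and for the optimal peaks, each derived from the replicates' alignments and 1 control file, per the deposited file listings. The signal of each entry is the authors' deposited value; its scale, the aligner, the peak caller and the threshold are each not stated (not given in the sources used here). Each summit was read from the offset column the authors deposited, which has no other unit. All 1168 optimal entries were in the pooled list, and they were the 1168 pooled entries at or above the lowest optimal signal. The ce10 lists were not used here. Columns without a sample or pool numbered 0. No sequencing depth is known; Wilson intervals (95%) cover counting only.

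Summits were placed with the WBcel235 annotation (Ensembl 115) as promoter, near small RNA gene, exon, intron or intergenic. The code ran in Python 3.11.15 with numpy 2.4.6 and scipy 1.17.1. Placement was checked at random genome positions against slower direct code, and string counting on strings planted in artificial sequence. An entry was matched to the best replicate entry sharing 1 bp. Strings were counted in 200 bp windows. Named were the 10 members of highest signal per set, members with the forkhead consensus, genes with 2 members, members of 14 gene lists and entries at the signal edge; others were chosen after their values were seen. The members and lists were chosen with earlier results of these data known. Alternatives changed the promoter window, the small RNA distance, the point placed, the entries kept, the string window and the end distance. Samples were mapped from their labels, and the replicates are separate worm samples per the labels.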

Additional observations from a re-analysis of the deposited data

How the results depend on the processing

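The 9 counts and shares were recomputed under 18 alternative settings as far as each applied, which gave 115 values. Of these, 99 stayed within 1.5 times the count or within the interval of the share. Not every setting could move the values. Keeping 1 entry per region changed none, since the 208 members already differed in start or end. Placing the midpoint in place of the summit gave 209 members. With the 584 optimal entries of highest signal, members numbered 90, with 13 in introns, 21 in exons and 56 in intergenic sequence, and 96.7% and 98.9% were among the best entries of replicates 1 and 2; fewer entries were kept by construction. Leaving out only summits inside small RNA genes, and not those within 200 bp, gave 306 members. Of these, 78 were in introns, and 57.2% lay within 500 bp of an end. A promoter window of 2000 bp left 148 members, with 36 in exons and 87 in intergenic sequence. One of 500 bp gave 276 members, with 177 in intergenic sequence and 62.0% near an end. The size of the set thus depends on these distances, although each of these totals was within 1.5 times 208. The 1168 best entries of a single replicate gave 70 to 92 exon members, the higher count from replicate 2 alone, and 231 to 246 members in all, and put the forkhead consensus at 2.03% to 3.46%, against 1.44% in the optimal list. A string window of 400 bp gave the forkhead consensus 4.81% and the E2F class 24.0%, and one of 100 bp gave the E2F class 9.62%. Only members were recounted at these windows, so the shares of candidates and promoter peaks at 200 bp are no reference for them. Ends within 250 bp and 1000 bp gave 54.8% and 76.4%. The end distances, every other setting for the end share, and the 200 members left when the weaker of overlapping entries was dropped (71.0% near an end) were added after the data were seen. Beyond these constructions the cause was not tested. No paired analysis was possible because the study has 1 group and no result comes from a test. The depth of the replicates is unknown, so how far it limits the lists cannot be stated.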
